A study of Rattus norvegicus with 44 samples.

Results

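The dose trend in rat liver was followed over 7 dose levels of crude MCHM, 4-methylcyclohexanemethanol, a cyclic alcohol used in washing coal. All 27 liver arrays of the series were used, of 44 arrays in all. The other 17 are from kidney and served only for the comparison of slopes between organs. Male Harlan Sprague Dawley rats, 6 to 8 weeks old at assignment, had MCHM in corn oil by gavage at 5 mL/kg on 5 days, and tissue was taken the day after the last dose. Control rats had the corn oil alone (0 mg/kg). The other liver groups had 500, 300 or 100 mg/kg, or the low doses of 10, 1 or 0.1 mg/kg. Each liver group had 4 arrays, except 3 at 0.1 mg/kg. The labels call the arrays of a group biological replicates and name no animals. The design text says that arrays with batch effects were left out of the deposit. They were not analysed here.

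Each of 31042 probe sets of the Affymetrix rat array was given a slope in 2 ways. The first line ran over the dose order, with the levels coded 0 to 6, so that the step from 0 to 0.1 mg/kg weighs as much as the step from 300 to 500 mg/kg. The second ran over the dose in mg/kg, so that 100, 300 and 500 mg/kg set nearly all of it. A transcript that lies closer to the first line, as one that moved with each dose level would, is called graded here. One that lies closer to the second is called threshold-like, a class that holds a change in proportion to mg/kg as well as a step at the high doses. Values are log2 expression. A slope is a log2 change per dose level or per 100 mg/kg, a fall carries a minus sign, and every adjusted p is from limma with a threshold of 0.05.

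The liver takes up most of what is absorbed from the gut. Hepatocytes sense foreign compounds, sterols, fatty acids and oxidative stress through transcription factors. PXR and CAR raise cytochrome P450 enzymes and carboxylesterases, NRF2 raises glutathione and NADPH enzymes, SREBP2 raises cholesterol synthesis and SREBP1 and ChREBP raise fatty acid synthesis. PPARA raises fatty acid oxidation. The same cells make most plasma proteins, among them carriers of hormones.

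The samples read as liver. The 11 measured hepatocyte markers had a mean level between 13.02 and 13.30 in every liver array, and 5 neutrophil markers between 3.74 and 4.53. Liver arrays correlated at r = 0.989 to 0.994 with each other across probe sets, and 0 pairs held identical values. The 3' minus 5' difference of the Gapdh control probe sets, a sign of RNA quality, lay between 0.03 and 0.17. Its means by dose ran from 0.0877 at 100 mg/kg to 0.123 at 0.1 mg/kg. *Xist*, the RNA that coats an inactive X chromosome, set a single liver array apart. In vehicle replicate 2 it read 10.999 at its brightest probe set, and between 2.80 and 3.47 in the other liver arrays, although all rats are labelled male. The Y-linked *Eif2s3y* read 9.26 in the same array and between 8.94 and 9.49 in the others. Counts are therefore also given without that array.

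Over dose order, 76 probe sets passed the threshold (0.245%), 52 rising (0.168%) and 24 falling (0.0773%). Over mg/kg, 361 passed (1.16%), 211 rising (0.68%) and 150 falling (0.483%). The shared calls numbered 67, which is 88.2% of the dose order calls and 18.6% of the mg/kg calls. In all, 370 probe sets (1.19%) passed on either line, 219 rising (0.705%) and 151 falling (0.486%), and for 0 of them did the slopes differ in sign. They include 289 with 1 gene symbol, from 272 genes. A second quantile normalization within liver called 82 over dose order, 46 rising and 36 falling, so that the rising share went from 68.4% to 56.1%. Over mg/kg it called 380, 193 rising and 187 falling, and the rising share went from 58.4% to 50.8%.

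The number of calls rested on the top doses and on few arrays. Without all 500 mg/kg arrays 2 probe sets passed over dose order and 69 over mg/kg, and without all 300 mg/kg arrays 8 and 218. Without 500 mg/kg replicate 4 the counts were 12 and 107, and without 500 mg/kg replicate 3 they were 30 and 197. The dose order count was 38 without 500 mg/kg replicate 1, 44 without 300 mg/kg replicate 1 and 39 without 300 mg/kg replicate 4. It was 44 without vehicle replicate 3. Without vehicle replicate 2, the array with *Xist* signal, it was 45, and the mg/kg count was 290.

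The slope up to 100 mg/kg, fitted on the 19 arrays at 0 to 100 mg/kg, passed for 0 probe sets in limma, with 1594 at an unadjusted p under 0.05. No departure from the dose order line passed either (0 probe sets, 2104 at an unadjusted p under 0.05), and a prior with a trend and robust estimation gave 10. A fit with both lines at once asked, for each probe set, whether either carried change that the other missed. The mg/kg term passed for 3 probe sets (0.00966%), all rising, and the dose order term for 0, with 1712 at an unadjusted p under 0.05. Graded and threshold-like shapes were thus told apart by a test at only 3 probe sets, and the classes below are a description of the called probe sets.

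The 3 are *Mro*, the maestro gene, *Uroc1*, the urocanase of histidine breakdown, and *Bphl*, a serine hydrolase of the biphenyl hydrolase family. Beside dose order, the mg/kg term was 0.13 per 100 mg/kg for *Mro* (adjusted p = 0.0428), 0.14 for *Uroc1* (0.0367) and 0.12 for *Bphl* (0.0367). The count ran from 0 to 5 as single arrays were left out. It was 0 in 15 of the 27 such fits, namely without vehicle replicate 1, 2 or 4, without replicate 2 or 3 at 0.1 mg/kg, replicate 4 at 1 mg/kg, replicate 1, 2 or 3 at 10 mg/kg, replicate 1, 3 or 4 at 100 mg/kg, or replicate 2, 3 or 4 at 500 mg/kg. Without vehicle replicate 3 it was 5.

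*Bphl*, of the threshold-like class, is given array by array. Its level was 10.08, 10.07, 9.97 and 10.12 in the vehicle livers, 9.97, 9.96 and 9.98 at 0.1 mg/kg, then 9.97, 9.87, 9.98 and 9.89 at 1 mg/kg. It read 9.96, 9.91, 9.79 and 9.97 at 10 mg/kg, then 10.00, 10.02, 9.92 and 10.03 at 100 mg/kg. At 300 mg/kg it read 10.33, 10.17, 10.05 and 10.08, and at 500 mg/kg 10.22, 10.36, 10.32 and 10.44. The top group lay above all vehicle arrays, the 300 mg/kg group overlapped them, and the 10 mg/kg arrays were at or below the lowest of them. The mg/kg slope was 0.07 (SE 0.01, adjusted p = 6.64e-04) and the dose order slope 0.05 (0.15). *Mro* read 8.496 ± 0.11 (SD, n = 4) in vehicle, 8.35 ± 0.04 at 100 mg/kg and 8.86 ± 0.08 at 500 mg/kg. With single arrays left out, *Uroc1* lost its mg/kg call only without 500 mg/kg replicate 4 (0.0555). The call was also lost in 2 of 10 other settings of the processing or dose groups (highest adjusted p = 0.844). *Uroc1* read 11.14 ± 0.12 in vehicle, 10.99 ± 0.17 at 100 mg/kg, 11.17 ± 0.07 at 300 mg/kg and 11.49 ± 0.05 at 500 mg/kg (n = 4 each).

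**Figure D1:**
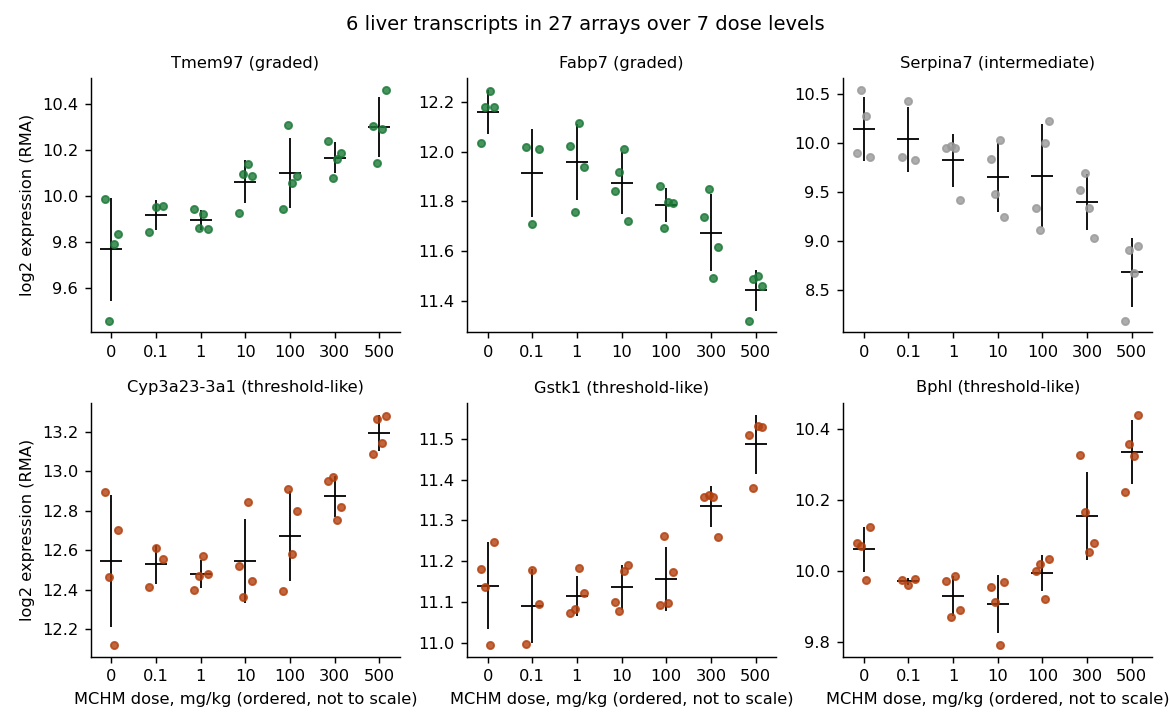
Log2 expression (vertical axis) of 6 transcripts in the 27 liver arrays against dose in mg/kg (horizontal axis, ordered and not to scale). Points are arrays, horizontal bars group means and vertical lines ± 1 SD. *Tmem97* and *Fabp7* moved over several levels, and *Cyp3a23-3a1*, *Gstk1* and *Bphl* stood near vehicle up to 100 mg/kg and were highest at 500 mg/kg.

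The called probe sets were divided by which line left the smaller residual sum of squares. At a difference of at least 10%, 24 of 370 were graded (6.49%), 277 threshold-like (74.9%) and 69 intermediate (18.6%). The graded class held 17 rising and 7 falling probe sets and the threshold-like class 158 and 119. These classes use the same values as the calls, so no test between them is given, and a call on the mg/kg line already favours the threshold-like shape. *Sqstm1*, the autophagy receptor p62, lies just inside the graded class with a ratio of 1.1 between the mg/kg and dose order residuals, and *Lactb2* just outside with 1.09. *Fryl*, at 0.907, lies just inside the threshold-like class and *Eci1*, at 0.911, just outside. At the threshold of the mg/kg slope, *Egfr* lies just inside (adjusted p = 0.0499) and *Nutf2* just outside (0.0504). Without 500 mg/kg replicate 4 the classes held 9 graded and 90 threshold-like probe sets, and without 500 mg/kg replicate 3 they held 14 and 151. The graded count was 14 without vehicle replicate 2, 15 without 300 mg/kg replicate 2 and 39 without 0.1 mg/kg replicate 2. A second quantile normalization gave 31 graded probe sets, 18 rising and 13 falling.

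The share of the whole change from vehicle to 500 mg/kg that was present at lower doses describes the classes and follows from how they were formed. In the graded class a median of 0.639 of that change was present at 100 mg/kg (quartiles 0.579 and 0.796) and 0.996 at 300 mg/kg. In the threshold-like class it was 0.116 at 100 mg/kg (quartiles -0.0651 and 0.255) and 0.537 at 300 mg/kg. The graded median was already 0.31 at 0.1 mg/kg, then 0.281 at 1 mg/kg and 0.475 at 10 mg/kg. Part of the graded change thus lay between vehicle and the lowest dose, and the median did not rise from 0.1 to 1 mg/kg. The threshold-like median was -0.0189, -0.0574 and -0.0364 at these doses. A straight line in mg/kg gives 0.2 at 100 mg/kg and 0.6 at 300 mg/kg, so the threshold-like medians lie close to a change in proportion to dose. Of the single shapes compared (both lines and a step at each dose), the line in mg/kg was closest for 154 threshold-like probe sets. A step at 300 mg/kg was closest for 70 of them, at 500 mg/kg for 43 and at 100 mg/kg for 10. Of the graded probe sets, 19 lay closest to the dose order line.

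**Figure D2:**
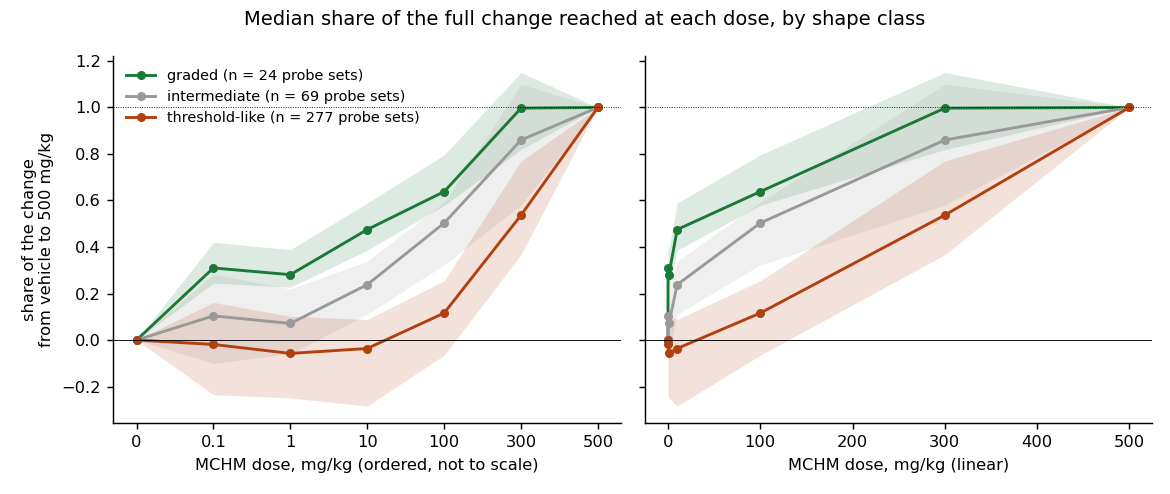
Median share of the change from vehicle to 500 mg/kg (vertical axis, 1 is the full change) reached at each dose, for 24 graded, 69 intermediate and 277 threshold-like probe sets. Bands run from the lower to the upper quartile over probe sets. The left panel spaces the doses by order and the right panel by mg/kg. The graded median stood at 0.639 at 100 mg/kg and the threshold-like median at 0.116.

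Falling graded transcripts were led by *Fabp7*, a fatty acid binding protein best known from the developing brain. Its level was 12.04, 12.18, 12.24 and 12.18 in vehicle livers, 12.02, 11.71 and 12.01 at 0.1 mg/kg, then 12.02, 11.76, 12.11 and 11.94 at 1 mg/kg. At 10 mg/kg it read 11.84, 11.92, 12.01 and 11.72, and at 100 mg/kg 11.86, 11.69, 11.80 and 11.79. The 300 mg/kg arrays read 11.74, 11.85, 11.49 and 11.62, and at 500 mg/kg 11.32, 11.49, 11.50 and 11.46. Every array of the dosed groups lay below every vehicle array, except at 1 mg/kg, where the groups overlapped. The dose order slope was -0.10 (SE 0.01, adjusted p = 2.5e-04) and the level at 500 mg/kg was 0.608 of that in vehicle. The call stood with any single array left out (highest adjusted p = 0.00172). As in any bulk tissue, fewer cells of a type and less RNA per cell cannot be told apart.

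Rising graded transcripts were led by *Tmem97*, the sigma-2 receptor, a sterol-responsive membrane protein. Its level was 9.99, 9.46, 9.79 and 9.84 in vehicle livers, 9.84, 9.95 and 9.96 at 0.1 mg/kg, then 9.95, 9.86, 9.92 and 9.86 at 1 mg/kg. At 10 mg/kg it read 9.93, 10.10, 10.14 and 10.09, and at 100 mg/kg 9.95, 10.31, 10.06 and 10.09. At 300 mg/kg it read 10.24, 10.08, 10.16 and 10.19, and at 500 mg/kg 10.31, 10.15, 10.29 and 10.46. The lowest value is that of vehicle replicate 2, the 300 and 500 mg/kg arrays lay above all vehicle arrays, and those at 10 and 100 mg/kg overlapped them. The dose order slope was 0.08 (SE 0.01, adjusted p = 0.00195) and the residual ratio 1.51. The dose order call stood with any single array left out (highest adjusted p = 0.00889). The mg/kg call did not pass without 500 mg/kg replicate 4 (0.052). A second *Tmem97* probe set was graded too, with a slope of 0.08 (adjusted p = 0.0112).

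The other graded genes serve several tasks of the cell. *Tubb4b*, a beta-tubulin, rose by 0.08 per dose level (SE 0.01, adjusted p = 0.0193), from 10.46 ± 0.19 (SD, n = 4) in vehicle to 10.87 ± 0.14 at 100 mg/kg and 10.95 ± 0.10 at 500 mg/kg. *Psmc5*, an ATPase of the proteasome cap, rose by 0.05 (0.0273) and *Slc26a1*, a sulfate and oxalate transporter, by 0.06 (0.0193). *Abce1*, which splits ribosomes after translation, rose by 0.05 (0.0326), *Ebp*, a sterol isomerase, by 0.07 (0.0348) and *Sqstm1* by 0.06 (0.0326). *Cdc42ep2*, an effector of Cdc42, rose by 0.07 (0.0315). The nuclear import genes *Ipo4* (0.04, 0.0476) and *Nutf2* (0.04, 0.0471) rose as well, and *Ipo4* is the gene just inside the dose order threshold. The dimmer probe sets of *Abhd1*, *Fli1* and *Sephs1* and 7 probe sets with no single gene symbol complete the class.

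Some of these calls rested on 1 array. *Slc26a1* did not pass over dose order without 500 mg/kg replicate 4 (adjusted p = 0.0603). *Psmc5* did not pass without that array (0.0793), without vehicle replicate 2 (0.0512) or without vehicle replicate 3 (0.0632). *Tubb4b* passed throughout (highest 0.047).

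*Otub2*, a deubiquitinase that counted as graded, had its highest mean at 300 mg/kg, and its departure from the dose order line did not pass (adjusted p = 0.552). Its 300 mg/kg arrays read 8.03, 8.04, 8.07 and 8.12, and its 500 mg/kg arrays 7.32, 6.89, 7.46 and 7.97. At 100 mg/kg they read 6.66, 7.65, 8.35 and 7.58, and in vehicle 6.68, 6.56, 6.49 and 6.85. All 300 mg/kg arrays thus lay above all 500 mg/kg arrays, and the 100 mg/kg arrays ran from within the vehicle range to above the 300 mg/kg arrays. The dose order slope was 0.18 (SE 0.04, adjusted p = 0.0326) and the mg/kg slope did not pass (0.15, 0.119). Both *Otub2* probe sets were graded. The dose order call was lost without any one of 7 arrays, with a highest adjusted p of 0.0994 without 500 mg/kg replicate 4. The others were vehicle replicates 2 (0.0643) and 3 (0.0718) and 300 mg/kg replicates 1 (0.0536), 2 (0.0531), 3 (0.0504) and 4 (0.059).

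**Figure D3:**
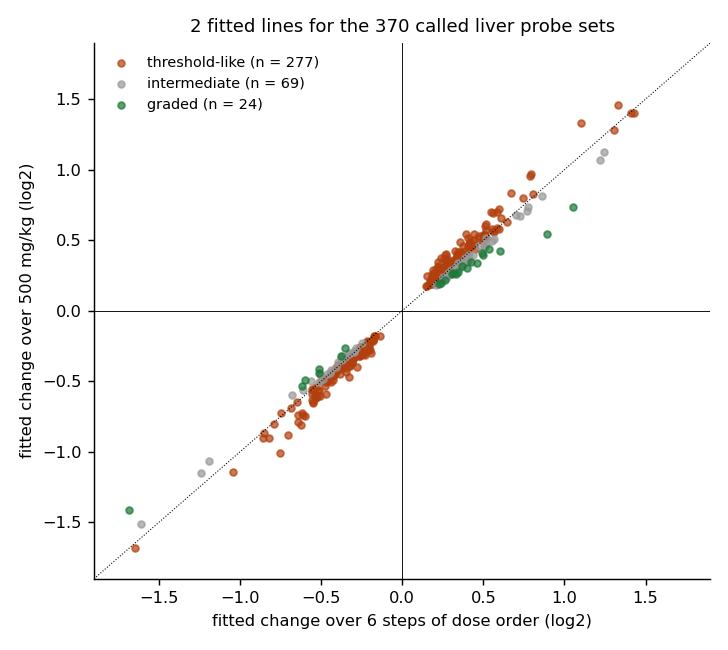
Change predicted over 0 to 500 mg/kg by the mg/kg line (vertical axis, log2) against the change predicted over the 6 dose steps by the dose order line (horizontal axis, log2) for the 370 called probe sets, coloured by class. The dotted diagonal marks equal predictions. No point lies in the quadrants of opposite sign, and most are threshold-like.

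Among drug-metabolising genes, *Cyp3a23-3a1*, a PXR-responsive P450 of steroid and drug oxidation, was threshold-like. It read 12.90, 12.46, 12.12 and 12.70 in vehicle livers, 12.41, 12.61 and 12.56 at 0.1 mg/kg, then 12.40, 12.47, 12.57 and 12.48 at 1 mg/kg. It read 12.52, 12.36, 12.85 and 12.44 at 10 mg/kg, then 12.39, 12.91, 12.58 and 12.80 at 100 mg/kg. The 300 mg/kg arrays read 12.95, 12.97, 12.76 and 12.82, with 500 mg/kg arrays at 13.09, 13.26, 13.15 and 13.28. Only the 500 mg/kg group lay above every vehicle array. The vehicle arrays spread more (SD 0.34) than those at 500 mg/kg (SD 0.09). The mg/kg slope was 0.13 (SE 0.02, adjusted p = 2.72e-04), and 0.194 of the full change was present at 100 mg/kg and 0.505 at 300 mg/kg.

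The CAR and PXR targets, 20 measured genes, held 4 that rose over mg/kg and 0 that fell (20%, beside 1.64% of all 14217 genes), and 1 over dose order (0 without 500 mg/kg replicate 4). Their median mg/kg slope was 0.02, beside 0.00178 over all genes. *Cyp3a18* rose by 0.10 per 100 mg/kg (adjusted p = 9.91e-04), *Cyp3a9* by 0.21 (0.0365) and the carboxylesterase *Ces2c* by 0.14 (0.00426). The 3 *Cyp3a* genes and their relatives share sequence, so cross-hybridisation between their probe sets was not tested. *Cyp1a1*, the classic aryl hydrocarbon receptor target, did not pass (mg/kg slope 0.05, 0.395), and 0 of 7 targets of that receptor passed. Of 14 male-biased liver genes only *Cyp2c22* passed, rising by 0.11 (0.00176).

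The glutathione and NADPH genes under NRF2 had the most members past the threshold of the 20 pathway lists. Of 26 measured, 8 rose over mg/kg and 0 fell (30.8%), with 4 threshold-like and 4 intermediate, and 2 rose over dose order. Their median mg/kg slope was 0.04. The glutathione transferase *Gsta3* rose by 0.29 per 100 mg/kg (SE 0.05, adjusted p = 0.00154) and was 2.28-fold higher at 500 mg/kg than in vehicle. At 300 mg/kg it read 8.36, 9.03, 8.18 and 8.38, while the 500 mg/kg arrays read 8.39, 8.86, 8.52 and 8.87. It read up to 8.17 in any lower group. *Pir*, the iron-binding protein pirin, rose by 0.10 (0.00519), biliverdin reductase *Blvrb* by 0.07 (0.0104) and the aflatoxin aldehyde reductase *Akr7a3* by 0.13 (0.0447). *Gclc*, the catalytic subunit of glutathione synthesis, rose by 0.07 (0.0381). The NADPH and pentose phosphate enzymes *Me1* (0.09, 0.0447), *Pgd* (0.08, 0.0376) and *Tkt* (0.06, 0.0382) rose too. Without 500 mg/kg replicate 4 the adjusted p of *Blvrb* was 0.0516. *Nqo1*, a standard NRF2 target, did not pass (0.06, 0.371). The list's count was 5 without vehicle replicate 2, 5 after a second quantile normalization and 3 without 500 mg/kg replicate 4, and its median slope stayed at 0.04 or 0.05. Its dose order count was 1 without 500 mg/kg replicate 4.

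Outside that list, *Abhd1*, whose product is an alpha/beta hydrolase, rose on both lines. It read 8.33, 7.93, 8.03 and 7.88 in vehicle, then 8.69, 8.78, 8.81 and 8.93 at 500 mg/kg, with every group from 0.1 to 300 mg/kg between those means. Every 500 mg/kg array lay above every other liver array, and each of the other groups overlapped vehicle. Its slope was 0.10 per dose level (SE 0.01, adjusted p = 0.00195) and 0.12 per 100 mg/kg (SE 0.01, adjusted p = 6.4e-05). The brighter probe set was threshold-like and the dimmer one graded, so the class of this gene depends on the probe set.

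Promoters of 3 of the rising genes are shown because they hold the core of the antioxidant response element, TGACNNNGC on either strand, the sequence that NRF2 binds. The sequences are from RefSeq on build GRCr8, each 300 bases on the gene's own strand, from 250 before to 50 after the start, with the matches in capitals. *Abhd1* is at chr6:31147415-31147714 (minus strand), *Gsta3* at chr9:31154739-31155038 (plus strand, 1 of 2 windows of the gene) and *Pir* at chrX:33851000-33851299 (minus strand).
Abhd1: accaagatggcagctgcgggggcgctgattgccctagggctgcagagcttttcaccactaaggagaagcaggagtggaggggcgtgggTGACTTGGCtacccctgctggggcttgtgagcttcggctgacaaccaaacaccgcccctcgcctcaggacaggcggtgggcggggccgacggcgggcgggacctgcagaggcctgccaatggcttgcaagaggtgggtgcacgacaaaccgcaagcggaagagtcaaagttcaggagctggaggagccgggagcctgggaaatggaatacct
Gsta3: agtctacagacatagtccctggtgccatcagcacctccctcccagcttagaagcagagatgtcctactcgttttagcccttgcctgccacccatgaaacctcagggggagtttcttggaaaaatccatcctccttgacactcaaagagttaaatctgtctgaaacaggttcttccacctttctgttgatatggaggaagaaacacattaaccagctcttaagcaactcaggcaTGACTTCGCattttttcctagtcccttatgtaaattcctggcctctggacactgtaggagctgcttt
Pir: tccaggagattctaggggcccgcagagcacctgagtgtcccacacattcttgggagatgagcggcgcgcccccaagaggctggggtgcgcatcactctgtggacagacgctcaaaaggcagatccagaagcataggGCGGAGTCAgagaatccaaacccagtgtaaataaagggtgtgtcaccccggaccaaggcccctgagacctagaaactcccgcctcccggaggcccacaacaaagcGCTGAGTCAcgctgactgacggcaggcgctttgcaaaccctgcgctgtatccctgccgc
The match begins 162 bases before the start of *Abhd1* and 17 before that of *Gsta3*. *Pir* has 2, beginning 114 and 9 bases before its start, and the nearer one overlaps a match to the aryl hydrocarbon receptor core GCGTG, read there as CACGC. The core is common. Over all 33469 promoter windows 12.1% hold it, and counted by gene 13.1% of 27457. Among NRF2 list members with a window it was present in 3 of 8 that rose (37.5%) and in 5 of 16 that did not pass (31.2%). Of the named genes with a window, 9 of 41 held it (22.0%). Among these 9 are *Nim1k* and *Prdx4*, which fell, and *Slc3a2*, which did not pass, while the others rose. A match describes these letters only and is no evidence of binding.

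Genes of cholesterol and of fatty acid synthesis were among those that rose. Of 22 measured cholesterol synthesis genes, 4 rose over mg/kg and 0 fell (18.2%), and 3 rose over dose order, with 2 graded and 2 threshold-like. The sterol reductase *Tm7sf2* rose by 0.13 per 100 mg/kg (SE 0.02, adjusted p = 3.49e-04), from 10.52 ± 0.18 in vehicle to 10.67 ± 0.10 at 100 mg/kg, 11.06 ± 0.10 at 300 mg/kg and 11.03 ± 0.14 at 500 mg/kg (n = 4 each). *Dhcr7*, the last enzyme of the pathway, rose by 0.10 (0.00857), beside *Ebp* and *Tmem97* above. The list's count over mg/kg was 3 without vehicle replicate 2 and 1 without 500 mg/kg replicate 4, and over dose order it was 2 without either.

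Of 23 measured fatty acid synthesis genes, 6 rose over mg/kg and 0 fell (26.1%), of which 5 were intermediate, and 2 rose over dose order. The list's median mg/kg slope was 0.04. *Me1* is 1 of the 6 and is counted in the NRF2 list as well. *Thrsp*, the lipogenic regulator Spot 14, rose by 0.28 per 100 mg/kg (SE 0.05, adjusted p = 0.00142). It read 11.79, 11.48, 11.51 and 12.21 at 300 mg/kg, then 11.37, 11.74, 11.59 and 12.27 at 500 mg/kg, above the highest value of 11.33 in the lower groups. *Thrsp* was already at its full change at 300 mg/kg, with 1.01 of it. The elongase *Elovl6* rose by 0.23 (0.0132), ATP citrate lyase *Acly* by 0.16 (0.0238), acetyl-CoA carboxylase *Acaca* by 0.10 (0.0282) and *Fasn*, the fatty acid synthase, by 0.14 (0.0447). *Elovl6* and *Fasn* had higher means at 300 mg/kg (8.55 and 10.31) than at 500 mg/kg (8.26 and 9.98). *Elovl6* had an adjusted p of 0.075 once 500 mg/kg replicate 4 was left out. The *Fasn* call was lost in 21 of 27 fits that left out 1 array (highest adjusted p = 0.158). The list's mg/kg count was 4 without vehicle replicate 2 and 2 without 500 mg/kg replicate 4, and its dose order count was 1 and 0.

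**Figure D4:**
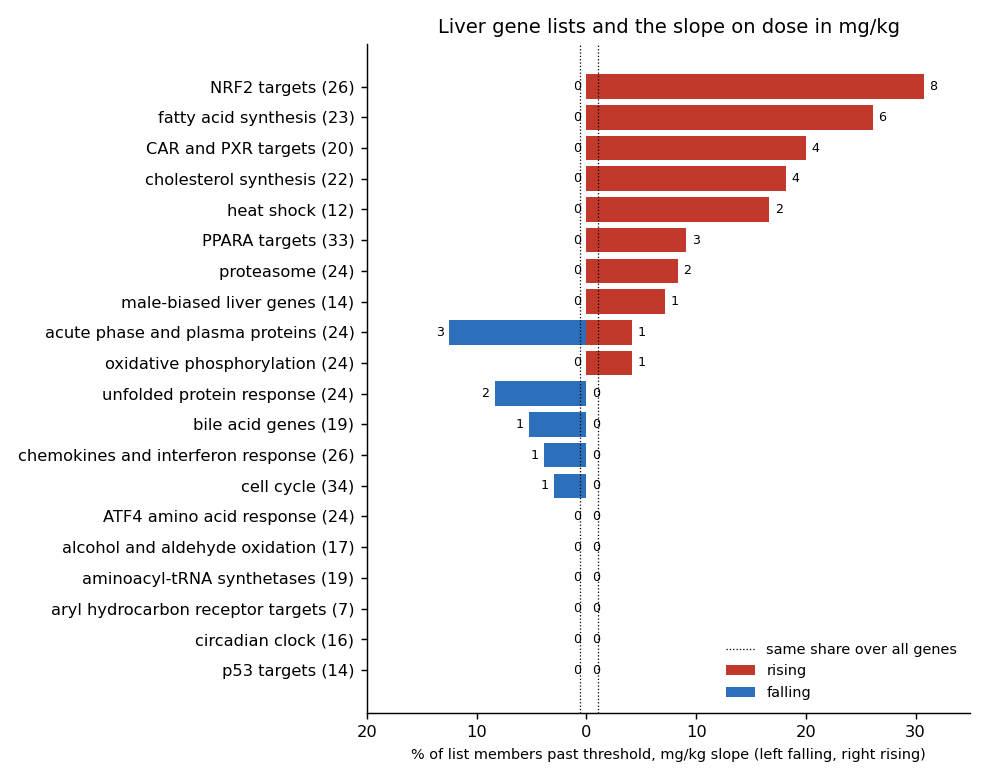
Percent of the measured members of 20 gene lists (n in brackets) that passed the threshold of the mg/kg slope, falling to the left and rising to the right, with the count at each bar's end. Dotted lines mark the same shares over all 14217 genes. NRF2 targets (8 of 26) and fatty acid synthesis (6 of 23) had the largest shares.

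Of 33 measured PPARA targets, 3 rose and 0 fell (9.09%), and the list's median mg/kg slope of 0.01 lay near that of all genes. The omega-hydroxylase *Cyp4a1* rose by 0.11 per 100 mg/kg (adjusted p = 0.0327), the peroxisomal bifunctional enzyme *Ehhadh* by 0.10 (0.0237) and the enoyl-CoA isomerase *Eci1* by 0.10 (0.0367). *Cyp4a1* and *Ehhadh* were near vehicle at 100 mg/kg, with -0.0126 and 0.0168 of the full change, and at 300 mg/kg reached 0.273 and 0.177. Without 500 mg/kg replicate 4 the list had 0 calls, with an adjusted p of 0.143 for *Cyp4a1* and 0.142 for *Ehhadh*. Both genes also missed the threshold without 500 mg/kg replicate 1 (0.0815 and 0.0649), replicate 2 (0.0862 and 0.0582) or replicate 3 (0.0923 and 0.0705).

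Outside the lists above, *Gstk1*, the kappa glutathione transferase, rose by 0.07 per 100 mg/kg (SE 0.01, adjusted p = 1.51e-04). It read 11.18, 11.14, 10.99 and 11.25 in vehicle livers, then 11.09, 11.26, 11.10 and 11.17 at 100 mg/kg. It read 11.36, 11.36, 11.36 and 11.26 at 300 mg/kg, then 11.51, 11.38, 11.53 and 11.53 at 500 mg/kg. The 300 and 500 mg/kg groups lay above all vehicle arrays and apart from each other, and the 100 mg/kg group overlapped vehicle. *Acsm2*, a medium-chain acyl-CoA synthetase, rose by 0.19 (adjusted p = 0.00115), and *Plin3*, a lipid droplet coat protein, by 0.09 (9.13e-04). The glycolytic mutase *Pgam1* rose by 0.04 (0.00493). Of 24 oxidative phosphorylation genes only *Atp5f1c*, of the ATP synthase, passed (0.04, 0.00523), while 22 of 24 mg/kg slopes lay above 0, beside 7535 of 14217 over all genes.

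Of the protein handling lists, 8.33% of proteasome, 16.7% of heat shock and 8.33% of unfolded protein response genes passed over mg/kg. The share over all genes was 1.64%. Of 24 proteasome genes *Psmc1* (0.04, adjusted p = 0.0472) and *Psmc5* (0.05, 0.0464) rose over mg/kg, and all 24 slopes lay above 0. Over mg/kg 0 passed without vehicle replicate 2, without 500 mg/kg replicate 4 or after a second quantile normalization. The *Psmc1* call was lost in 22 of 27 fits without 1 array and the *Psmc5* call in 23 of 27. Of 12 heat shock genes *Hspa4* (0.05, 0.0282) and the mitochondrial cochaperonin *Hspe1* (0.05, 0.0345) rose, with 1 call left without vehicle replicate 2 and 0 without 500 mg/kg replicate 4. Of 24 unfolded protein response genes 0 rose and 2 fell. *Prdx4*, the peroxiredoxin of the endoplasmic reticulum, fell by 0.06 per 100 mg/kg (SE 0.01, adjusted p = 6.64e-04), and *Sel1l*, of the degradation complex in the same compartment, fell by 0.05 (0.0418), a call lost in 17 of 27 fits without 1 array. *Prdx4* read 11.78, 11.89, 11.89 and 11.97 in vehicle, then 11.61, 11.51, 11.60 and 11.43 at 500 mg/kg, and the groups did not overlap.

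Genes of the ATF4 amino acid response and the aminoacyl-tRNA synthetases had no calls on either line. Of their dose order slopes 22 of 24 and 19 of 19 lay above 0, beside 7524 of 14217 over all genes. Of their mg/kg slopes 16 of 24 and 18 of 19 lay above 0, beside 7535 of 14217. The ATF4 list had a median slope of 0.0381 per dose level and 0.011 per 100 mg/kg. *Asns*, asparagine synthetase, had its highest mean at 300 mg/kg (8.74 ± 0.24, SD, n = 4) and read 7.56 ± 0.47 at 500 mg/kg and 7.38 ± 0.52 in vehicle. *Slc3a2*, the heavy chain of amino acid transporters, also had its highest mean at 300 mg/kg, with 10.30 ± 0.18 there, 9.73 ± 0.09 at 500 mg/kg and 9.49 ± 0.08 in vehicle. The means at 0.1, 10 and 100 mg/kg (8.25, 8.03 and 8.12 for *Asns*, 9.95, 9.94 and 10.08 for *Slc3a2*) also lay above the 500 mg/kg mean. Neither line passed for them (adjusted p from 0.266 to 0.852), nor did the departure from the dose order line (0.435 and 0.288). *Cyp7a1*, which sets the rate of bile acid synthesis, did not pass on either line (dose order slope 0.19, 0.251), with an SD within a dose of up to 1.02.

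Falling genes included hormone carriers made by hepatocytes. *Serpina7*, thyroxine-binding globulin, read 9.89, 10.54, 10.27 and 9.86 in vehicle livers, 9.86, 10.42 and 9.82 at 0.1 mg/kg, then 9.95, 9.97, 9.95 and 9.42 at 1 mg/kg. It read 9.84, 9.48, 10.03 and 9.25 at 10 mg/kg, then 9.34, 9.11, 9.99 and 10.22 at 100 mg/kg. The 300 mg/kg arrays read 9.52, 9.70, 9.34 and 9.04, and at 500 mg/kg 8.19, 8.91, 8.68 and 8.95. Every 500 mg/kg array lay below every other liver array, and the 300 mg/kg arrays below every vehicle array. The slope was -0.21 per dose level (SE 0.03, adjusted p = 0.00445) and -0.23 per 100 mg/kg (SE 0.03, adjusted p = 8.13e-04). Its level at 500 mg/kg was 0.364 of that in vehicle.

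*A2m*, the proteinase inhibitor alpha-2-macroglobulin, fell by 0.20 per dose level (SE 0.04, adjusted p = 0.0193). It read 8.17, 8.54, 8.72 and 8.87 at 500 mg/kg and 9.48, 10.41, 9.98 and 10.61 in vehicle, and the top group again lay below every other array. Without 500 mg/kg replicate 4 its dose order call was lost (0.0603). *Serpina6*, corticosteroid-binding globulin, fell by 0.08 per 100 mg/kg (0.00241). These are the 3 that fell of 24 acute phase and plasma protein genes. The member *Orm1*, alpha-1-acid glycoprotein, rose by 0.12 (0.00176), so the list did not move one way. Outside the list, the coagulation regulators *Serpina10* (-0.04, 0.0123) and *Cpb2* (-0.04, 0.0237) fell, and neither passed without 500 mg/kg replicate 4 (both 0.0555). *Cpb2* did not pass either without 500 mg/kg replicate 2 (0.0662) or 3 (0.0533).

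Further falling genes belong to other cells or tasks. *Jchain*, the joining chain of antibodies from plasma cells, fell by 0.15 per 100 mg/kg (SE 0.02, adjusted p = 0.00154). *Ccl5*, a chemokine of lymphocytes, fell by 0.10 (0.00768), the only one of 26 chemokine and interferon genes to pass. *Abcb4*, which exports phosphatidylcholine into bile, fell by 0.07 (0.02), a call lost without 500 mg/kg replicate 4 (0.131) or replicate 1 (0.0673). Cyclin D1, *Ccnd1*, fell by 0.15 (0.0432), a call lost in 14 of 27 fits without 1 array (highest adjusted p = 0.173). *Nim1k*, a protein kinase, fell by 0.30 (0.00388), and lay between 4.68 and 6.01 in the 300 mg/kg arrays and between 5.55 and 6.72 in the 500 mg/kg arrays, against 6.98 to 7.64 in vehicle. *Rplp0* (-0.04, 0.0447), of the ribosomal stalk, *Tmsb4x* (-0.06, 0.00506), thymosin beta 4, and *Popdc2* (-0.12, 0.00154) fell as well, and the *Rplp0* call was lost in 21 of 27 fits without 1 array.

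Markers of some other liver cells had slopes below 0. None of 12 stellate cell and fibroblast markers passed, and all 12 had slopes below 0 on both lines, with a median of -0.0385 per dose level beside 0.00164 over all genes. Without vehicle replicate 2, 2 of the 12 dose order slopes lay above 0. A second quantile normalization also gave 2 above 0, and 1 marker then passed over mg/kg, falling. Without 500 mg/kg replicate 4, 2 lay above 0 on each line. A second probe set of the marker *Reln*, not the one read for that gene, did pass, falling and threshold-like. The mean level of the 12 markers ran from 6.98 to 7.41 in vehicle arrays and from 6.70 to 6.97 at 500 mg/kg. The shift did not follow the doses in order, with a mean of 7.17 in vehicle, 6.92 at 0.1 mg/kg, 7.11 at 100 mg/kg, 6.86 at 300 mg/kg and 6.88 at 500 mg/kg. All 9 macrophage markers also had slopes below 0 (median -0.022), with a mean level of 8.498 to 9.005 in vehicle and 8.53 to 8.61 at 500 mg/kg. Without vehicle replicate 2, 1 of the 9 dose order slopes lay above 0. Of 12 T, B and plasma cell markers *Jchain* alone passed, and their mean level was 5.03 to 5.18 in vehicle and 4.82 to 4.93 at 500 mg/kg. Of 8 endothelial markers 1 had a slope above 0 on the dose order line. Cholangiocyte markers had a median of 0.00411 per dose level (3 of 5 above 0) and -0.00174 per 100 mg/kg (2 of 5). Neutrophil markers had -0.00237 per dose level (2 of 5 above 0) and 0.00999 per 100 mg/kg (3 of 5), so both lists changed sign between the lines. Erythroid markers had medians above 0 on both lines (0.00359 and 0.0124, with 3 of 4 slopes above 0 on each). The 11 hepatocyte markers had a median of -0.008 per dose level and 0 calls. The part of these shifts in the falling genes was not tested.

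Few differences between liver and kidney slopes passed the threshold. A fit of all 44 arrays found 15 probe sets with unlike dose order slopes (0.0483%), 12 higher in liver (0.0387%) and 3 lower (0.00966%). The count at an unadjusted p under 0.05 was 2825. *Slc26a1* rose in liver and had a kidney slope of -0.04, a difference of 0.10 per level (SE 0.02, adjusted p = 0.035). *Sqstm1* had slopes of 0.06 in liver and -0.03 in kidney (difference 0.09, 0.035). *Scly*, selenocysteine lyase, *Pecr*, a peroxisomal enoyl-CoA reductase, and *Ccdc25* differed by 0.10, 0.09 and 0.12 (each 0.035), and none of these 3 passed in liver alone. *Gstm1* and *Asgr1*, a hepatocyte lectin receptor, had steeper slopes in kidney, downward (-0.12 and -0.14), than in liver (0.03 and -0.01), so the liver slope was the higher.

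The count of organ differences moved with many arrays. It ran from 1 to 28 as single arrays were left out, with 1 without liver 500 mg/kg replicate 4, without kidney vehicle replicate 3 or without kidney 500 mg/kg replicate 3. It was 2 without kidney vehicle replicate 2 or kidney 500 mg/kg replicate 2 and 28 without kidney vehicle replicate 1. It was 13 without liver vehicle replicate 2. After a second quantile normalization within each organ 1 probe set remained. Kidney vehicle replicate 2 read 9.33 for *Xist*, against 2.76 to 3.03 in the other kidney arrays. Kidney 300 mg/kg replicate 2 had a Gapdh 3' minus 5' difference of 2.00, against 0.19 to 0.60 in the others, and without it the count was 25. The part of either array in the organ differences beyond these counts was not tested. The labels do not tie liver and kidney arrays to animals, so no animal block was fitted.

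**Figure D5:**
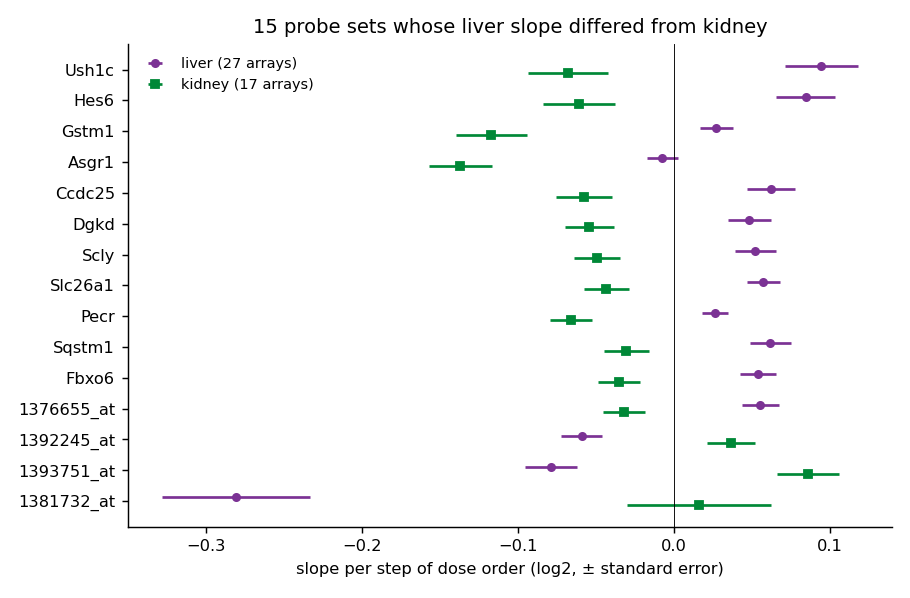
Dose order slope (log2 per dose level, ± SE) in liver (27 arrays) and kidney (17 arrays) of the 15 probe sets whose slopes differed between organs, named by gene where there is 1 symbol. The liver SE is from the fit of the liver arrays alone. The kidney SE is from the fit of all 44 arrays, which takes 1 variance for both organs. The liver slope is the higher at 12 of them and the lower at 3.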

How the data were processed

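Total RNA from liver and kidney was hybridised to Affymetrix rat expression arrays, per the labels' protocols. The deposited values are log2 expression summarised by RMA, per the submitters' processing notes. The version, chip definition and grouping of organs in RMA are not stated in the sources used here. Quantile normalization, part of RMA, hides a shift of most transcripts in one direction, and changes of dim probe sets are compressed. No detection calls or scanner intensities were used.

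Of 31099 probe sets, 57 controls were left out. The platform annotation gives 1 symbol to 20826, several to 436 and none to 9780, and 20758 symbols were updated through a GRCr8 gene table used for names only. Each gene is read from its 1-symbol probe set with the highest liver mean, and 14217 genes are named. *Cyp2b1* is not analysed here. Symbols of list members were also matched through synonyms.

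With limma 3.58.1 in R 4.3.3, lmFit and eBayes fitted each line with 25 residual degrees of freedom, the fit with both lines, the 5 degrees of freedom beyond the dose order line, the slope up to 100 mg/kg, and both organs' slopes. All tests were two-sided, and p-values were adjusted by Benjamini-Hochberg over 31042 probe sets, with a threshold of 0.05. The scripts were tested on simulated data. The number of arrays limits the precision. The labels call arrays biological replicates but name no animals, so p-values measure the spread between these arrays.

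Genes past the threshold are named when among the 8 each way of smallest p on either line, the 5 each way with the largest residual ratio in the graded and in the threshold-like class, up to 4 each way in each other test and up to 2 members per gene list. *Cyp1a1*, *Cyp3a23-3a1*, *Cyp4a1*, *Cyp7a1*, *Nqo1*, *Fasn*, *Asns* and *Slc3a2* are given whatever their values. Other members of the lists and classes are named as what a count holds, after their values were seen. The 20 gene lists, 8 marker lists, tests and genes were chosen with earlier results of these data known. Alternatives were another normalization, filter, prior, weighting, dose coding, margin, the replicate number as a block, and each array or dose group left out.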

Additional observations from a re-analysis of the deposited data

Results flagged for a closer look

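Single arrays of the named genes were set against the others of their dose group wherever a group had 4 arrays. Of 324 such groups, over 54 genes, 19 held an array whose gap to the next was large against the group's range (Dixon's test at 95%). Chance alone gives about 1 in 20.

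In vehicle livers, *Atp5f1c* read 12.41 in replicate 2 (others 12.28 to 12.30), *Ehhadh* 11.25 in replicate 1 (10.68 to 10.76), *Mro* 8.33 in replicate 3 (8.55 to 8.56) and *Nqo1* 7.95 in replicate 1 (7.22 to 7.34). At 1 mg/kg, *Cyp2c22* read 12.49 in replicate 4 (12.98 to 13.01), *Gsta3* 8.10 in replicate 1 (6.84 to 7.04), *Hspa4* 8.36 in replicate 3 (8.54 to 8.55), *Hspe1* 11.93 in replicate 4 (12.25 to 12.26) and *Serpina7* 9.42 in replicate 4 (9.95 to 9.97). At 10 mg/kg, *Ehhadh* read 11.35 in replicate 1 (10.88 to 10.95). At 100 mg/kg, replicate 1 was low for *Cyp1a1* (4.91, others 5.29 to 5.34) and for *Cyp4a1* (10.49, others 10.98 to 11.03).

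At 300 mg/kg, *Gstk1* read 11.26 in replicate 4 (others 11.36), *Pecr* 12.56 in replicate 1 (12.45 to 12.46) and *Pir* 7.26 in replicate 3 (7.48 to 7.51). At 500 mg/kg, *Ccdc25* read 5.62 in replicate 3 (5.82 to 5.83), *Ehhadh* 11.81 in replicate 4 (11.51 to 11.55), *Gstk1* 11.38 in replicate 2 (11.51 to 11.53) and *Serpina10* 11.58 in replicate 3 (11.51 to 11.52).

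The liver slope minus the kidney slope per dose level passed the test of the difference for 15 probe sets. A probe set with no single gene symbol had -0.17 (adjusted p = 0.00378). The other 14 had an adjusted p of 0.035 to 0.0362. They are *Slc26a1* (0.10), *Scly* (0.10), *Pecr* (0.09), *Ccdc25* (0.12), *Fbxo6* (0.09), *Dgkd* (0.10), *Sqstm1* (0.09), *Asgr1* (0.13), *Gstm1* (0.14), *Ush1c* (0.16), *Hes6* (0.15) and 3 further unnamed probe sets (0.09, -0.30 and -0.10).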

How the results depend on the processing

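Counts of calls, taken over all probe sets, moved with the processing. Directions of slopes were followed only for the 54 named genes, most of them picked by results in these same data. The dose order count of 76 was 125 with the spread taken within the 7 groups, 211 on the brighter probe sets only, 167 with a trended, robust prior, 41 without vehicle arrays and 36 over log10 of dose plus 0.1 mg/kg. Without all 500 mg/kg arrays it was 2 and without all 300 mg/kg arrays 8. The mg/kg count of 361 was 730 on the brighter probe sets, 611 with that prior, 69 without 500 mg/kg, 218 without 300 mg/kg and 172 without vehicle. The departure count of 0 was 10 with that prior, and the mg/kg term's count of 3 was 8 with it. Graded probe sets numbered 13 at a margin of 25%, 52 with no margin and 64 on the brighter probe sets, and threshold-like ones 162 at that margin and 496 on the brighter probe sets, where 760 were called on either line. The organ difference count of 15 was 23 on probe sets bright in both organs and 1 after renormalizing each organ. The cause was not tested, beyond the fewer arrays or probe sets that some settings hold. Slopes turned sign without 500 mg/kg for *Nqo1* (-0.0031 per level, -0.0282 per 100 mg/kg), *Uroc1* (-0.0107 per level) and *Ehhadh* (-0.00389 per 100 mg/kg), and without 300 mg/kg for *Asns* (-0.0332) and *Slc3a2* (-0.00556 per 100 mg/kg).

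With single arrays left out, the counts ran from 12 to 91 (dose order), 107 to 370 (mg/kg), 0 to 2 (departure), 0 to 5 (mg/kg term), 0 to 0 (dose order term and slope up to 100 mg/kg), 9 to 39 (graded), 90 to 285 (threshold-like), 110 to 375 (either line) and 1 to 28 (organs). Gene list alternatives were chosen after seeing the data.

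The replicate numbers in the titles were looked at as a possible pairing of the arrays. Same-numbered arrays of different doses deviated together at a mean r of 0.0224 over 78 pairs, 14 of them over 0.1. The mean r was -0.00742 for arrays of different numbers, and 12 of 27 arrays correlated best with their own number. Whether the numbers pair the arrays was not tested. With the number as a block 50 probe sets passed over dose order, 336 over mg/kg, 5 for the mg/kg term and 1 between organs.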

Other observations

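The smallest adjusted p of the mg/kg slopes over all 31042 probe sets belonged to *Myh1*, a skeletal muscle myosin heavy chain by annotation, a gene that the naming rule does not pick and that was singled out once its values were known. That probe set fell by 0.18 per 100 mg/kg (SE 0.02, adjusted p = 1.23e-05), from a mean of 10.20 in vehicle livers and 9.97 at 100 mg/kg to 9.12 at 500 mg/kg. Of 5 *Myh1* probe sets, 4 passed over mg/kg, all falling and threshold-like, and the brightest did not (-0.03, adjusted p = 0.331). The skeletal muscle genes *Acta1*, *Ckm*, *Tnnt3*, *Tnni2* and *Myh4* read between 2.40 and 4.45 in every liver array, while the *Myh1* probe sets read between 7.75 and 11.61. What these probe sets detect was not tested.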
